A study of Mus musculus with 4 samples.

Results

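Lipid droplets are stores of triglyceride and cholesteryl ester wrapped in a single phospholipid layer and a protein coat. In hepatocytes the coat is made of perilipins (Plin genes) and of the CIDE proteins, which enlarge droplets or load lipid onto secreted lipoproteins. Stored triglyceride is released by the lipase ATGL, the product of Pnpla2, which the small protein encoded by G0s2 inhibits. Droplet genes are well known to be higher in fatty liver, and several are targets of the fatty acid sensors of the PPAR family.

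The following 10 genes of this system are described here as the "droplet genes": the coat genes Plin2, Plin3, Plin4 and Plin5, the CIDE genes Cidea, Cideb and Cidec, the lipase gene Pnpla2 with its inhibitor G0s2, and Mogat1, which encodes a monoacylglycerol acyltransferase of triglyceride synthesis. They were taken by symbol, and all 10 were found among the 24346 symbols listed in each library. RNA sequencing was performed on liver of male wild type C57BL/6 mice, young adults at the start of the diet. All mice were fed for 3 weeks a NASH diet, which combines fat from cocoa butter, sucrose, cholesterol and a bile salt and induces steatohepatitis, with 7-ketocholesterol added (7KC group, n = 2) or not added (control group, n = 2). 7KC is a product of cholesterol oxidation. No group on a normal diet was compared here, so the NASH diet was common to both groups. The labels do not say whether the libraries of a group came from separate animals, and p-values then measure only the spread between these samples. The comparison asked whether genes of droplet storage and lipolysis differed when 7KC was added to the diet.

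The libraries held an estimated 13600000 to 16900000 mapped reads, as read from the step size of lowly expressed genes, an estimate that any scaling of libraries to each other before deposit would move. Hepatocyte markers were high in every library, with albumin (Alb) at 18988 to 41547 FPKM (a read density normalised to transcript length and to the reads mapped in the library). Their summed level was 75572 and 64260 FPKM in the control group, against 54870 and 41858 FPKM with 7KC (Cps1, -0.52, Apoa1, -0.68, Hnf4a, -0.25, and Ttr, -0.55 in log2 difference, limma adjusted p 0.239 to 0.345). Alb was the largest part of each sum and overlapped between groups, at 41547 and 25202 against 26969 and 18988 FPKM. All 11 tested markers had a negative log2 difference (9 of 11 after rescaling the libraries to the same sum). Their median was -0.40, beside -0.03 over all tested genes. The 7KC group was lower without overlap in 7 of the 11, against 27.4% of all tested genes, and higher in 0, against 25.1%. After rescaling to the same sum it was lower without overlap in 4, against 7.83%. The 14 macrophage markers summed to 386 and 337 FPKM in the control group, against 500.2 and 720 FPKM with 7KC. In 8 of these 14 genes the 7KC group was higher without overlap, against 25.1% of all tested genes. It was lower without overlap in 1, against 27.4%. None passed the test described next, as 62 of all 12299 tested genes did. After rescaling to the same sum 3 passed, where 405 of all 12330 tested genes did. With rescaling by the median ratio 1 passed (126 of all 12301), and with a pseudocount of 1 FPKM 1 (115 of all 12299). The smallest limma adjusted p was that of Ly6c2 (log2 difference 2.40, adjusted p 0.0523), a marker of recruited monocytes. Timd4 (0.92, 0.0606), Marco (0.92, 0.0966) and Ccr2 (1.59, 0.117) followed. In whole liver, fewer cells of a type and less RNA per cell cannot be told apart. FPKM values are also relative to the rest of the library. The FPKM of all genes summed to 685028 and 671235 in the control group, against 619828 and 557138 with 7KC. Droplet genes are also adipocyte genes, so adipocyte markers were examined: Lep and Ucp1 were listed at 0 in all libraries, Adipoq at 0.353 FPKM in control replicate 2 and at 0 in the others, and Plin1, the perilipin of fat cells, at 0.0873 FPKM in control replicate 2 and at 0 in the others. The 10 adipocyte markers summed to 31.5 and 44.9 FPKM in the control group, against 24.8 and 33.0 FPKM with 7KC, most of it from Fabp4, which macrophages and endothelial cells also express. Cfd, Adrb3, Retn and Fabp4 were also highest in control replicate 2, Adig in control replicate 1 and Acvr1c in 7KC replicate 1.

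None of the 8 droplet genes that could be tested passed the threshold over all genes (limma adjusted p under 0.05), against 0.504% of all 12299 tested genes. The other two, Cidea and Mogat1, had a mean under 0.5 FPKM and were not tested. An unadjusted p under 0.05 was found in 1 of the 8, Plin2, against 17.8% of all tested genes. In Plin2 and G0s2 the lower 7KC library exceeded the higher control library, which was the case for 25.1% of all tested genes. In Cideb both lay below, as in 27.4% of all tested genes. The median log2 difference of the 8 genes was -0.07, beside -0.03 over all tested genes. For 1 gene alone, an exact permutation test of 2 libraries against 2 gives a two-sided p of 0.333 at the least, above any usual threshold.

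**Figure D1:**
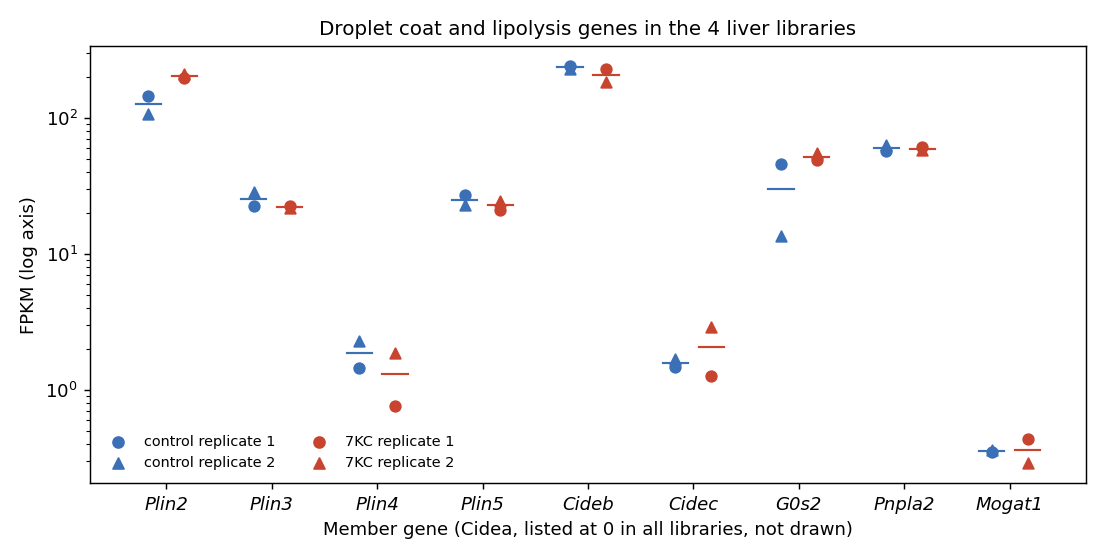
Level of each droplet gene in FPKM (log axis) in the 2 control libraries (blue) and the 2 7KC libraries (red). Circles are replicate 1, triangles replicate 2 and short lines group means. Cideb and Plin2 were the most abundant, and the single low point of G0s2 is control replicate 2 at 13.5 FPKM.

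By level per length, the droplet genes spanned a wide range. Cideb was at 183 to 240.1 FPKM over the 4 libraries and Plin2 at 106 to 209 FPKM, and each had a mean above more than 95% of all tested genes (96.6% and 95.8%). Cideb was above Plin2 in both control libraries, whereas in the 7KC group the ranges of the 2 genes overlapped. Pnpla2 followed at 57.1 to 63.0 FPKM and G0s2 at 13.5 to 54.6 FPKM, below Pnpla2 in each library. Plin3 (21.8 to 28.4 FPKM) and Plin5 (20.9 to 27.1 FPKM) were not separated, nor were Cidec (1.27 to 2.90 FPKM) and Plin4 (0.771 to 2.29 FPKM). Mogat1 was at 0.290 to 0.438 FPKM and Cidea was listed at 0 in all 4 libraries.

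Plin2 encodes the perilipin that coats droplets in most cells other than fat cells, and its protein is stabilized by the lipid it covers. The gene lies on chromosome 4 (mm10, 86648386 to 86670060, minus strand). It was at 145 and 106 FPKM in control replicates 1 and 2 and at 195 and 209 FPKM in 7KC replicates 1 and 2. Both 7KC libraries were thus above the higher control library, and the difference between the 2 controls was larger than that between the 2 7KC libraries. The group means were 126 ± 27.3 and 202 ± 10.2 FPKM (SD, n = 2 each), a ratio of 1.61. The log2 difference, 7KC minus control on the log2(FPKM + 0.5) scale, was 0.70 (SE 0.18, 95% interval 0.25 to 1.15, limma adjusted p 0.144). It was positive under every alternative that gave a value (0.48 to 0.92) and came closest to the threshold after rescaling to the same sum (adjusted p 0.0549, over the alternatives 0.0549 to 0.554).

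The libraries stood in the same order for Plin2 and for the macrophage marker Cd68, which was at 36.4 and 26.9 FPKM in the control group, against 56.5 and 96.9 FPKM with 7KC. Cd68 was chosen after its values were seen. Summed macrophage markers also had the order of Plin2, as did Itgax, Lgals3, Ccr2 and Marco. The other macrophage markers, among them Adgre1, Csf1r, Ly6c2, Gpnmb and Trem2, did not. The share of all tested genes with this order was not counted, so a shared order is a description only. The 4 genes of resident Kupffer cells among the macrophage markers differed in direction. Timd4 was at 7.44 and 7.62 FPKM in the control group, against 13.3 and 16.3 FPKM with 7KC, and Marco at 82.4 and 63.4 against 123 and 153 FPKM, both higher without overlap. Clec4f overlapped (48.1 to 65.1 FPKM), and Vsig4 was lower without overlap, at 40.1 and 43.0 against 25.4 and 38.4 FPKM. The part of these cells in the Plin2 values was not tested. Plin2 was far more abundant than the adipocyte perilipin Plin1.

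The region before the start of transcription is shown for the 3 droplet genes whose libraries did not overlap between groups, Plin2, G0s2 and Cideb. The sequences are from RefSeq (GRCm38.p6), read 5′ to 3′ on the minus strand, and end 10 bases after the outermost annotated start. Capitals mark the motifs searched on both strands: AGGTCA (the hexamer that PPARs and related nuclear receptors read as a repeat), CACGTG (an E-box), CCAAT and TATAAA. The regions are chr4:86670051-86670309 for Plin2, chr1:193273208-193273438 for G0s2 and chr14:55758449-55758674 for Cideb.
Plin2: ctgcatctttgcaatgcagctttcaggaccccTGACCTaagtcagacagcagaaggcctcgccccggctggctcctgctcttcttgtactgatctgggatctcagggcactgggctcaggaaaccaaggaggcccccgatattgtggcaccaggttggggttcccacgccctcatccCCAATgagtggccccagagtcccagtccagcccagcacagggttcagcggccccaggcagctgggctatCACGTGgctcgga
G0s2: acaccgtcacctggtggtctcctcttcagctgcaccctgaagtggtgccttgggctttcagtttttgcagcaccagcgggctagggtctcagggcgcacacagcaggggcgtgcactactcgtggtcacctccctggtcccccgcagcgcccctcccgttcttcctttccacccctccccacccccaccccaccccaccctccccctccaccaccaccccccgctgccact
Cideb: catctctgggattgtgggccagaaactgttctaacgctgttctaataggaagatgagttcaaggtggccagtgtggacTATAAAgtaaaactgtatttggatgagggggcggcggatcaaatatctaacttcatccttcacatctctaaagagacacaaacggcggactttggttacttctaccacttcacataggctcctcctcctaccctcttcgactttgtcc
The Plin2 region held AGGTCA on the opposite strand, read here as TGACCT, then CCAAT, and CACGTG across the start itself. In the full windows of 300 bases per start (250 before and 50 after), AGGTCA was in 16.3% of 32851 windows of all genes, CACGTG in 7.15%, CCAAT in 37.4% and TATAAA in 13.6%. Among the 11 windows of the 9 droplet genes found in the table, AGGTCA was in those of Plin2 and Plin5, CACGTG in that of Plin2, CCAAT in those of Plin2, Plin3, Plin4, Plin5 and Mogat1, and TATAAA in that of Cideb. The G0s2 window held none of them. The 13-base AGGTCA repeat with 1 base between was in 0.0396% of all windows and in none of these. A match is a description of the letters only.

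The other perilipins did not share the Plin2 pattern. Plin3, Plin4 and Plin5 lie together on the minus strand of chromosome 17, Plin4 (56100591 to 56109803) and Plin5 (56111601 to 56117596) close together and Plin3 at 56277476 to 56292873. Plin3, which moves between cytosol and small new droplets, was at 22.4 and 28.4 FPKM in the control group, against 22.4 and 21.8 FPKM with 7KC. Control replicate 2 was alone in being high, and the log2 difference was -0.19 (SE 0.15, 95% interval -0.55 to 0.18, adjusted p 0.548).

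Plin5, which tethers droplets to mitochondria and binds Pnpla2 protein, was at 27.1 and 22.9 FPKM in the control group, against 20.9 and 24.5 FPKM with 7KC. The groups overlapped, with a log2 difference of -0.13 (SE 0.14, 95% interval -0.49 to 0.23, adjusted p 0.664). Plin4, best known from fat and muscle, was at 1.45 and 2.29 FPKM in the control group, against 0.771 and 1.87 FPKM with 7KC. They rest on about 137, 174, 58.1 and 141 reads, and 7KC replicate 1 was the lowest of the 4 libraries. The log2 difference of -0.43 (SE 0.35, adjusted p 0.565) was at 0.02 without 7KC replicate 1 and at -0.88 without 7KC replicate 2. It was at -0.69 without control replicate 1 and at -0.17 without control replicate 2, the highest library. The signs of Plin3 and Plin5 turned after rescaling to the same sum (0.02 and 0.07), a scaling that moved the median of all tested genes from -0.03 to 0.16.

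Ratios within a library do not depend on how libraries are scaled. Plin2 made up 74.0% and 66.5% of the summed Plin1 to Plin5 FPKM in the control group, against 81.5% and 81.3% with 7KC. Plin5 made up 13.8% and 14.3% in the control group, against 8.76% and 9.53% with 7KC, and Plin3 11.4% and 17.7% against 9.37% and 8.47%. The groups did not overlap for any of these 3 shares, which are bound to each other because they sum to nearly the whole. The summed level was 196 and 160 FPKM in the control group, against 239 and 257 FPKM with 7KC. Plin2 thus accounted for more of the perilipin mRNA in both 7KC libraries, and with 2 libraries a group the shares were not tested.

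**Figure D2:**
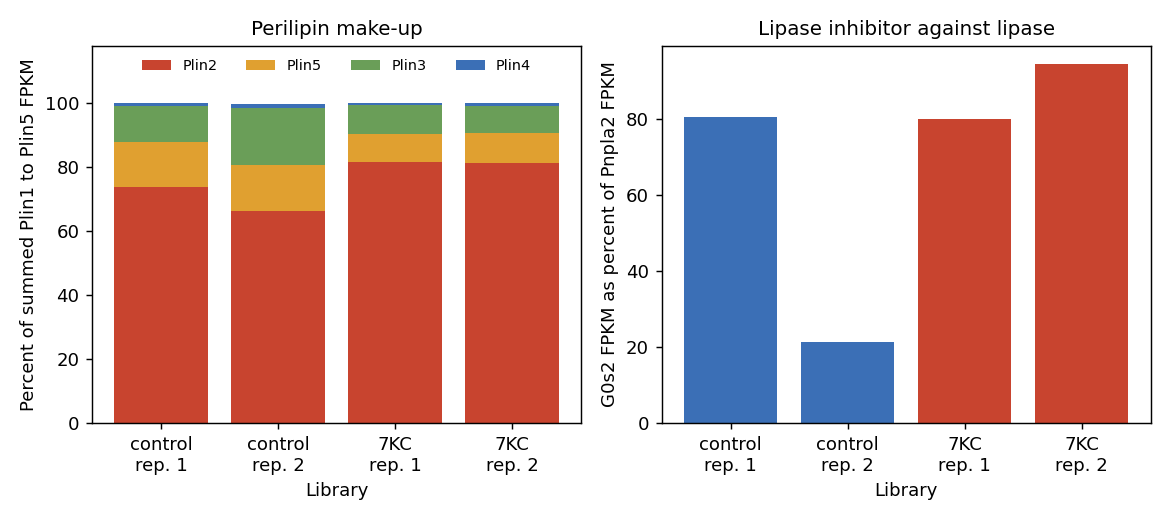
Left, share of each perilipin in the summed Plin1 to Plin5 FPKM of each library, in percent. Right, G0s2 FPKM as a percentage of Pnpla2 FPKM in the same library (control blue, 7KC red). Plin2 was at 81.5% and 81.3% with 7KC, and G0s2 stood at 21.4% of Pnpla2 in control replicate 2 against 79.9% to 94.4% in the other libraries.

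Among the CIDE genes the liver transcripts came nearly all from Cideb. Cideb protein resides on the endoplasmic reticulum and droplets of hepatocytes and takes part in the lipidation of very low density lipoprotein, while Cidea and Cidec are the fusion factors of fat cells that also appear in fatty liver. Cideb (minus strand of chromosome 14, 55754050 to 55758458) was at 240.1 and 229 FPKM in the control group, against 227 and 183 FPKM with 7KC. The lower control library was above the higher 7KC library only slightly, and 7KC replicate 2 was alone in being clearly lower. The log2 difference was -0.20 (SE 0.15, 95% interval -0.58 to 0.18, adjusted p 0.532), and the groups overlapped after either rescaling (log2 difference 0.01 with the same sum and -0.16 by the median ratio). Cideb and the gene Nop9 on the opposite strand overlap by 1451 bases, and whether reads were counted by strand was not stated. Nop9 was at 4.93 to 5.09 FPKM.

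Cidec (minus strand of chromosome 6, 113424634 to 113435760) was at 1.48 and 1.69 FPKM in the control group, against 1.27 and 2.90 FPKM with 7KC, or about 38.1, 35.1, 26.1 and 60.0 reads. The 7KC libraries were the lowest and the highest of the 4. Its log2 difference of 0.23 (SE 0.33, 95% interval -0.60 to 1.07, adjusted p 0.745) was at 0.71 without 7KC replicate 1 and at -0.24 without 7KC replicate 2. Cidec made up 0.554% to 1.56% of the CIDE FPKM and Cideb 98.4% to 99.4%. Cidea (chromosome 18) was listed at 0 in all 4 libraries, and no fold is given. The nuclear receptor Pparg, known to drive Cidec in fatty liver, was at 2.42 and 2.83 FPKM in the control group, against 3.72 and 2.72 FPKM with 7KC, which overlapped (log2 difference 0.24, SE 0.19, adjusted p 0.538).

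The lipase and its inhibitor differed in their spread. Pnpla2 (chromosome 7, 141455198 to 141460743, plus strand), the gene of the first enzyme of triglyceride breakdown, was at 57.1 and 63.0 FPKM in the control group, against 60.9 and 57.8 FPKM with 7KC. All values lay within a narrow band and overlapped. Its log2 difference was -0.02 (SE 0.11, limma adjusted p 0.954) with a 95% interval of -0.30 to 0.27, which in folds is 0.810 to 1.21. Of the 8 tested droplet genes it had the smallest standard error. Rescaling the libraries to the same sum gave 0.19 (adjusted p 0.405), about the shift of the median of all genes under that scaling.

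G0s2 (minus strand of chromosome 1, 193272161 to 193273217) was at 46.0 and 13.5 FPKM in the control group, against 48.6 and 54.6 FPKM with 7KC. Control replicate 1 was close to the 7KC libraries and control replicate 2 was far below all others, at about 124 reads against 442 to 522. The group means were 29.7 ± 23.0 and 51.6 ± 4.20 FPKM (SD, n = 2 each), a ratio of 1.74. The log2 difference of 1.03 was the largest among the droplet genes and had the widest interval (SE 0.55, 95% interval -0.35 to 2.41, adjusted p 0.384). It rested on 1 library: without control replicate 2 it was 0.16 (adjusted p 0.743), and without control replicate 1 it was 1.89 and passed the threshold (adjusted p 0.0125). Relative to Pnpla2 in the same library, G0s2 was at 80.5% and 21.4% in the control group, against 79.9% and 94.4% with 7KC, so that on this measure control replicate 1 lay between the 7KC libraries. G0s2 lies within the span of Lamb3 on the opposite strand, which was at 0.661 to 0.933 FPKM.

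Mogat1 (chromosome 1, 78510991 to 78538173, plus strand) encodes an enzyme that joins a second fatty acid to monoacylglycerol. It was at 0.350 and 0.362 FPKM in the control group, against 0.438 and 0.290 FPKM with 7KC, or about 4.1 to 6.1 reads a library. With so few reads no difference could be detected, and without a filter on low values its log2 difference was 0.01 (limma adjusted p 0.984).

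**Figure D3:**
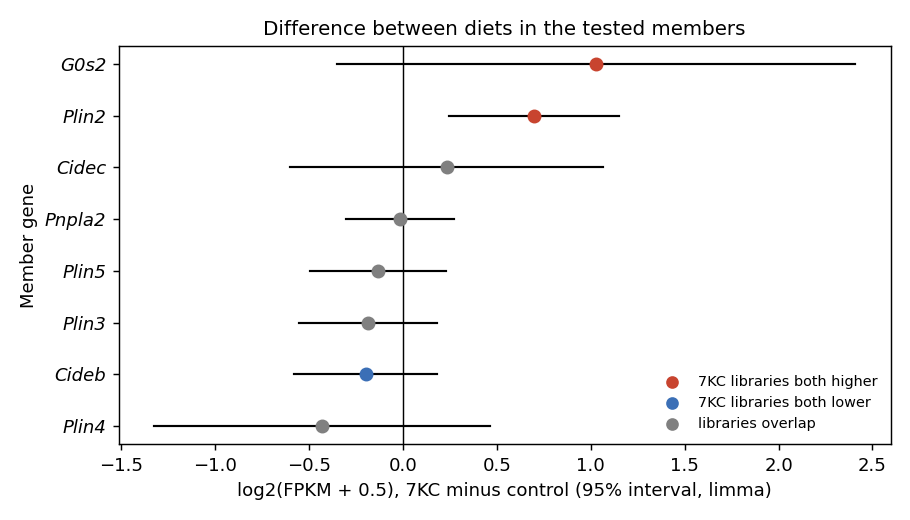
Difference between diets in log2(FPKM + 0.5), 7KC minus control, for the 8 tested droplet genes, with 95% intervals from limma. Red points are genes whose 7KC libraries were both higher, blue the gene whose 7KC libraries were both lower, and grey those that overlapped. The interval of Plin2 (0.25 to 1.15) lies above 0 before adjustment for all genes, and that of G0s2 (-0.35 to 2.41) is the widest.

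**Figure D4:**
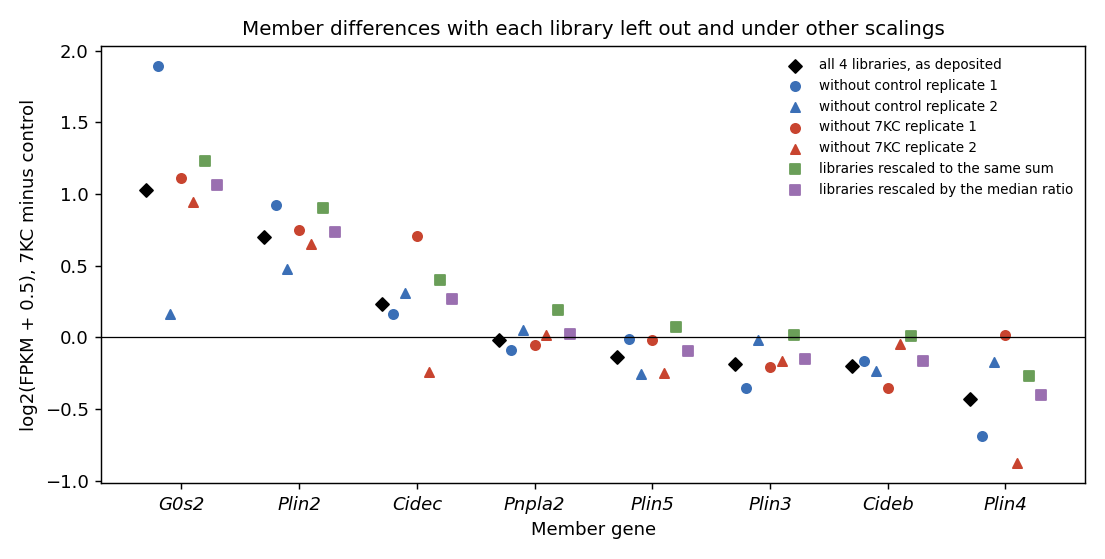
Difference in log2(FPKM + 0.5), 7KC minus control, of each tested droplet gene with all libraries (black), with 1 library left out (blue, a control library; red, a 7KC library; circle, replicate 1; triangle, replicate 2) and after 2 rescalings (squares). Plin2 stayed between 0.48 and 0.92, whereas G0s2 ran from 0.16 without control replicate 2 to 1.89 without control replicate 1.

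The genes closest in pattern were sought for the droplet genes with the highest and the lowest log2 difference, by the Euclidean distance between log2(FPKM + 0.5) values centred per gene over the 4 libraries, among the 11241 genes whose mean reached 1 FPKM. For G0s2 they were Smpd3 (distance 0.106), Cd7 (0.138) and Gm5741 (0.270). In all 3 control replicate 2 was the lowest library: Smpd3 was at 1.51 FPKM there and at 5.97 to 7.46 FPKM in the others, Cd7 at 1.22 against 4.77 to 5.57 FPKM, and Gm5741 was listed at 0 against 1.26 to 1.87 FPKM. For Plin4 they were Col13a1 (0.106), Cav1 (0.140) and Pcolce2 (0.148), each lowest in 7KC replicate 1, where Cav1 was at 0.689 FPKM against 1.38 to 1.86 FPKM in the others. Sharing the lowest library follows from how these genes were sought and is a description only.

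Further droplet proteins gave a similar picture. Of 16 genes, 15 were tested and none passed the threshold over all genes. Both 7KC libraries were higher in 3 (25.1% of all tested genes) and lower in 4 (27.4%), and the median log2 difference was -0.10. The smallest p-values were those of Hilpda, a small inhibitor of Pnpla2 protein that responds to hypoxia and fatty acids, and Tmem159, a partner of seipin in droplet assembly. Hilpda was at 2.54 and 1.96 FPKM in the control group, against 3.48 and 4.48 FPKM with 7KC, with both 7KC libraries higher (log2 difference 0.70, SE 0.19, adjusted p 0.156). Tmem159 was at 1.89 and 1.38 against 2.18 and 3.30 FPKM (0.59, SE 0.23, adjusted p 0.282). Fitm2, which helps droplets bud from the endoplasmic reticulum, was at 12.6 and 15.9 against 18.2 and 17.3 FPKM (0.31, SE 0.14, adjusted p 0.334). Hsd17b11 was at 140 and 140.2 against 123 and 124 FPKM, a log2 difference of -0.18 (SE 0.11, adjusted p 0.437) that turned to 0.03 after rescaling to the same sum. The abundant hepatocyte droplet protein gene Hsd17b13 overlapped, at 217 to 365 FPKM.

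Of 15 genes of other lipid hydrolases and their cofactors 13 were tested. None passed, and the median log2 difference was -0.09. Both 7KC libraries were higher in 3 (25.1% of all tested genes) and lower in 5 (27.4%). The hepatocyte carboxylesterase gene Ces1f was at 69.1 and 67.0 FPKM in the control group, against a mean of 50.6 FPKM with 7KC (log2 difference -0.42, SE 0.10, adjusted p 0.134). Its family shares sequence, so that single members are uncertain. Aadac, a microsomal esterase gene, was also lower in both 7KC libraries, at 410 and 373 against 315 and 248 FPKM (-0.48, SE 0.17, adjusted p 0.234). Lipe, which encodes the hormone-sensitive lipase that acts after Pnpla2, was at 8.10 and 7.09 against 10.5 and 9.78 FPKM (0.39, SE 0.12, adjusted p 0.207). Lpl, the lipase of circulating lipoproteins that macrophages express, was at 22.6 and 21.6 against 26.7 and 41.6 FPKM (0.58, SE 0.22, adjusted p 0.264). Abhd5, the coactivator of Pnpla2, was at 8.98 and 8.86 against 8.79 and 7.96 FPKM (-0.09, SE 0.12, adjusted p 0.728).

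In triglyceride synthesis 17 of 18 genes were tested and none passed. Both 7KC libraries were higher in 4 tested genes (25.1% of all tested genes) and lower in 6 (27.4%). The median log2 difference was -0.15. Dgat2, which catalyses the last step with newly made fatty acids, was at 272 and 313 FPKM in the control group, against 211 and 202 FPKM with 7KC (-0.50, SE 0.13, adjusted p 0.155). Lpin2, a phosphatidate phosphatase gene, was at 89.5 and 89.8 against 74.5 and 69.5 FPKM (-0.31, SE 0.11, adjusted p 0.236). Agpat1 was at 8.30 and 7.69 against 10.9 and 10.6 FPKM (0.41, SE 0.11, adjusted p 0.168), and Agpat9, the glycerol-phosphate acyltransferase also named Gpat3, at 2.98 and 2.05 against 3.75 and 4.29 FPKM (0.60, SE 0.19, adjusted p 0.217). The lowest log2 difference of the list, that of Lpin1, is given because of its size: it was at 101 and 176 against 84.9 and 39.9 FPKM (-1.19, SE 0.43, adjusted p 0.246), with a wide spread within both groups.

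Of the 13 transcription regulators of these genes none passed, and the median log2 difference was -0.15. Both 7KC libraries were higher in 2 (25.1% of all tested genes) and lower in 5 (27.4%). Hif1a, the hypoxia factor known to act on Hilpda and Plin2, was at 9.17 and 7.98 FPKM in the control group, against 13.1 and 12.9 FPKM with 7KC (0.57, SE 0.12, limma adjusted p 0.104). It passed after rescaling to the same sum (adjusted p 0.0473, over the alternatives 0.0473 to 0.452). Srebf1, the main activator of lipid synthesis genes, was at 74.1 and 101 against 54.5 and 52.5 FPKM (-0.69, SE 0.17, adjusted p 0.137). Foxo1, which acts on Pnpla2, was at 18.2 and 20.1 against 14.9 and 14.2 FPKM (-0.38, SE 0.11, adjusted p 0.190), and Cebpa at 183 and 244 against 179 and 130 FPKM (-0.47, SE 0.22, adjusted p 0.342). Ppara was at 58.5 and 51.0 against 48.0 and 50.5 FPKM (-0.15, SE 0.12, adjusted p 0.562). The medians of all 4 pathway lists turned positive after rescaling to the same sum (0.11, 0.11, 0.06 and 0.06), each below the median of all tested genes under that scaling (0.16).

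**Figure D5:**
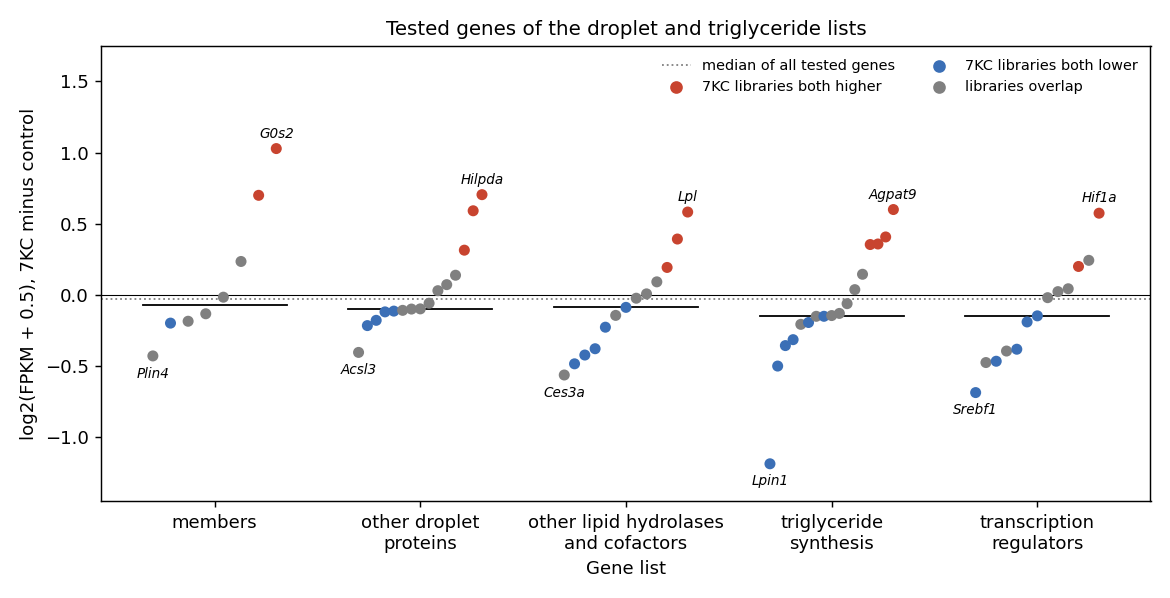
Difference in log2(FPKM + 0.5), 7KC minus control, of every tested gene in the droplet genes and 4 pathway lists. Each point is 1 gene, red where both 7KC libraries were higher, blue where both were lower and grey where they overlapped. Black lines are list medians, from -0.15 to -0.07, the dotted line is the median of all tested genes (-0.03), and the named genes are the lowest and highest of each list.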

How the data were processed

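Stranded mRNA libraries of liver, 4 in all, were sequenced by the authors as single-end reads and mapped to mm10 with TopHat and Bowtie2. The study's methods name Cufflinks for the FPKM values. The submitters' processing notes name TopHat2 2.1.1, Bowtie2 2.2.8, SAMtools 0.1.18 and Cuffdiff 2.2.1, and the study's methods name other versions. Whether Cufflinks or Cuffdiff made the deposited values is not known here. The annotation, the strand setting and any scaling between libraries were not stated. The deposited FPKM values are relative to the fragments of each library, and whether they were also scaled between libraries is not known here, so 2 rescalings were run.

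Groups were taken from the labels. Values were compared as log2(FPKM + 0.5), which understates the change of low genes, with limma 3.58.1 in R 4.3.3 (eBayes with a trend, group as the only term, 2 residual degrees of freedom and 3.27 from the prior). All 12299 genes whose mean reached 0.5 FPKM were tested together, with Benjamini-Hochberg adjustment over all of them. The fit was also run on simulated data with log2 changes of 2 up or down. No droplet gene differed by as much, so that run does not show whether smaller differences would be detected.

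Depth was estimated from single-transcript genes of GENCODE M21 (same build), taking 200 bases off each transcript: 73.5% to 75.1% of 477 to 529 low values per library came within 0.1 of a whole read, against a median of 12.1% to 13.3% over other depths. Reads per gene use the longest transcript and are approximate. They cover counting error only.

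The named genes were the 10 droplet genes and, from each other list, those past the threshold, filled up to 4 by the smallest p, and a few chosen after their values were seen (Cd68, Clec4f, Vsig4, Pparg, Ppara, Abhd5, Hsd17b13, Lpin1). The marker lists and the 4 pathway lists were written from general knowledge, and 1 hepatocyte marker, Tf, was not matched. Genes and lists were chosen with earlier results of these data known. Alternatives were other pseudocounts (1 and 0.1 FPKM), no filter and a minimum of 1 FPKM, the rescalings (to the same sum, or by the median ratio), no trend, the replicate number as a block, and each library left out.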

Additional observations from a re-analysis of the deposited data

How the results depend on the processing

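No droplet gene passed the threshold in the fit described or under any alternative except without control replicate 1, where G0s2 did (0 to 1 genes over the fits that leave out 1 library). Of 96 values of droplet genes under the alternatives, 86 kept their direction and their side of the threshold, 9 changed sign and 1 (G0s2) passed. Rescaling to the same sum turned the sign of Plin3 (0.017), Plin5 (0.0698), Cideb (0.0077) and Pnpla2 (0.19), and rescaling by the median ratio that of Pnpla2 (0.0213). Over the fits that leave out 1 library, Plin4 ranged from -0.8779 to 0.0199 (without 7KC replicate 1), Cidec from -0.24 (without 7KC replicate 2) to 0.7075, and Pnpla2 from -0.0872 to 0.0549, above 0 without control replicate 2 and without 7KC replicate 2. Rescaling gives each library a new factor and so shifts all genes alike. The other causes were not tested. The 7KC group was lower without overlap in 1 of 8 droplet genes (27.4% of all tested genes), in 0 after rescaling to the same sum (7.83%) or by the median ratio (23.3%), and in 2 to 4 with a library left out (37.8% to 41.9%), where a group of 1 avoids overlap more easily. It was higher without overlap in 2 (25.1%), in 3 after rescaling to the same sum (46.6%), in 2 by the median ratio (27.9%), and in 2 to 3 with a library left out (33.5% to 37.6%).

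The count of all genes past the threshold moved widely: 62 in the fit described, 115 with a pseudocount of 1 FPKM, 1 without a filter (2634 with an unadjusted p under 0.05), 405 with libraries rescaled to the same sum, 126 by the median ratio, 40 without a trend, and 4 to 458 with 1 library left out (4 without 7KC replicate 2, 5 without 7KC replicate 1, 458 without control replicate 1). The count moved little with a pseudocount of 0.1 FPKM (54) and with a minimum of 1 FPKM (54). With the replicate number as a block it was 0 (1851 with an unadjusted p under 0.05), and the block changed no call of a droplet gene. The deviations of same-numbered samples from their group means correlated at -0.14 over genes, so the numbers were not taken to pair the samples, and a block with crossed numbers, added after seeing the data, gave 588 genes and no droplet gene. In the fits without 1 library the lone library of a group is assumed to vary like the other group. With 2 libraries a group, the 95% intervals of all tested droplet genes but Plin2 included 0.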
